A study of Mus musculus with 11 samples.

Results

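The genes of endoplasmic reticulum (ER) calcium handling and the nucleobindins were examined in tumor cDC1s, the conventional type 1 dendritic cells that take up tumor antigen and present it to T cells. The group is a fixed list of 10 genes among the 24421 in the count table: the ER calcium sensors Stim1 and Stim2, the plasma membrane channel Orai1, the inositol trisphosphate (IP3) receptors Itpr1, Itpr2 and Itpr3, the calcium pumps Atp2a2 and Atp2a3, and the calcium-binding nucleobindins Nucb1 and Nucb2. The genes were listed by function, with earlier results of these data known. All 10 were counted in every pool, and all 10 were among the 10951 genes that passed the filter on low counts. Bulk RNA-seq was made from 11 pools of cDC1s sorted from B16 melanoma, each from the tumors of 2 to 4 mice, on a C57BL/6 background, of both sexes and 6 to 14 weeks of age. The 4 control pools carried floxed Xbp1 alleles and no Cre (XBP1 fl/fl in control pools 1 to 3, and XBP1 fl/fl, IRE1 fl/fl in control pool 4). The 4 XBP1ΔDC pools combined XBP1 fl/fl with CD11c-CRE. The 3 XBP1ΔDC IRE1truncDC pools carried CD11c-CRE with both floxed genes, XBP1 fl/fl and IRE1 fl/fl. Thus, floxed Xbp1 alleles were common to all 11 pools. CD11c-CRE acts in all cells that express CD11c and not in cDC1s alone. Recombination removes exon 2 of Xbp1, the gene of the transcription factor that the ER stress sensor IRE1 activates by splicing its mRNA, and exons 20 and 21 of Ern1, which leaves a truncated IRE1 without its RNase domain.

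Calcium is kept at a far higher concentration in the ER than in the cytosol, and chaperones of the ER lumen need it to fold secreted and membrane proteins. SERCA pumps (Atp2a genes) fill the store, IP3 receptors release it upon signaling, and STIM proteins sense the loss of lumenal calcium and open Orai channels at the plasma membrane, a route known as store-operated calcium entry that also drives calcium signals in dendritic cells. Nucleobindins are EF-hand proteins of the Golgi and the secretory pathway. Nucb1, also called calnuc, is a major calcium-binding protein of the Golgi, and Nucb2 is the precursor of the secreted peptide nesfatin-1.

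The comparisons ask which of these transcripts depend on XBP1 and which depend on the RNase domain of IRE1 when XBP1 is absent, since that domain can also cleave other mRNAs (RIDD). Therefore, the promoters and transcripts of the genes that changed were examined first. The 250 bases before the RefSeq start site (GRCm38.p6) are shown for the 3 genes on which the results turn, with each CCACG, a half-site of the ER stress response element, in capitals (CGTGG where the match lies on the other strand). Nucb1 lies on the minus strand, and its promoter is chr7:45510409-45510658. Nucb2 lies on the plus strand with the promoter chr7:116504119-116504368. For Stim2, on the plus strand, the promoter is chr5:53998273-53998522.
Nucb1: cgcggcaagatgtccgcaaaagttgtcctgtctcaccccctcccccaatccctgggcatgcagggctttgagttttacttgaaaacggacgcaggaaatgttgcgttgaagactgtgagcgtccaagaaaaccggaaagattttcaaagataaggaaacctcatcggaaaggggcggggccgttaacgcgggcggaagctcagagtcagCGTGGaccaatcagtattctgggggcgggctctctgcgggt
Nucb2: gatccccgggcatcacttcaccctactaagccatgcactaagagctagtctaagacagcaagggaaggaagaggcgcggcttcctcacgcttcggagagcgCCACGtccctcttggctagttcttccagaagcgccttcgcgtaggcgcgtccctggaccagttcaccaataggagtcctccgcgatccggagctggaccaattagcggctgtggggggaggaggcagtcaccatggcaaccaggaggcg
Stim2: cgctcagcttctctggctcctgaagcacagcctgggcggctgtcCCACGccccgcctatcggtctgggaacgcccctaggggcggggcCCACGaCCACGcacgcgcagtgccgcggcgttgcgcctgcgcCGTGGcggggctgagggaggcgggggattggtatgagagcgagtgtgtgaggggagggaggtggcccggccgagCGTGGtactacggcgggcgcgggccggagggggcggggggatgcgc

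The letters CCACG were searched on both strands from 250 bases before to 50 bases after the start in the 8 genes of the 10 with a promoter in the RefSeq table. Nucb1 held 1 match, Nucb2 held 2, of which 1 lies after the start, and Stim2 held 5. Itpr2 held 4 matches, Orai1 held 3 and Itpr3 held 1, while Stim1 and Atp2a3 held 0. Such matches are common, and 32.8% of the 32851 promoters in the table and 47.7% of the 10776 promoters of genes tested held at least 1. The form of the ER stress response element searched here, CCAAT followed after 9 bases by CCACG, was found in 0 of the 8 promoters. It was found in 0.119% of all promoters. Other spacings and orders of these motifs were not searched, and in the Nucb1 promoter shown above CGTGG is followed directly by accaat. The motif TGACGTGG, which contains a CCACG half-site on its other strand, was found in 0 of the 8 and in 0.676% of all promoters.

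The transcripts were searched in the sense strand for CTGCAG, which is held by 1 of the 2 sites that IRE1 cleaves in Xbp1 mRNA, in the principal coding transcript of each gene in GENCODE vM21. Stim2, whose transcript is 4934 bases long, held 6 copies, of which the last lies in the 3′ UTR and the others lie in the coding sequence. They are shown because Stim2 was the sensor that passed in XBP1ΔDC, as 30 bases of sense strand each with these 6 bases in capitals.
Stim2 bases 809 to 814: cttgaggataccCTGCAGtggttaatagaa
Stim2 bases 1148 to 1153: gacttagagagtCTGCAGactgcagagcag
Stim2 bases 1155 to 1160: agagtctgcagaCTGCAGagcagagtctca
Stim2 bases 1890 to 1895: ccgtggctaaacCTGCAGgatctttagcca
Stim2 bases 2419 to 2424: cctggagaaatcCTGCAGcatgcaccagct
Stim2 bases 3350 to 3355: tgatttactgcaCTGCAGgctgtatgataa
That is 1.22 copies per kb, against a median of 0.779 per kb over 10328 transcripts of genes tested, and 26.7% of those transcripts reached this density. Nucb1 held 4 copies (0.824 per kb) and Nucb2 held 3 (1.78 per kb, reached by 10.5% of transcripts). The density of Nucb1 rests on its principal transcript of 4853 bases and was not computed for its transcript 201 of 2111 bases. The highest density among the 10 genes was that of Itpr3, with 24 copies (2.67 per kb). When the 7-base loop CNGCAGN was required to be closed by at least 4 base pairs, G-U pairs included, the search found both sites of Xbp1 and none in Stim2. Nucb1, Itpr1 and Orai1 held 1 such loop each, and 13.9% of transcripts of genes tested held at least 1. The loop of Nucb1, with its 7 bases in capitals, starts at base 4069, beyond the coding sequence of this transcript.
Nucb1 loop: aatgcaggagtCCGCAGAattcagagaggg

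Next, the levels of the 10 genes were compared per kb of transcript, in TMM-normalized CPM, that is, counts scaled to a common library total. In control pools Orai1 was the most abundant, at 126.8 ± 20 CPM per kb (SD, n = 4), which is above 94.7% of genes tested. Atp2a2, the widely expressed SERCA2 pump, followed with 65.9 ± 2.72 CPM per kb, and Nucb1 with 46.1 ± 3.09. Atp2a3, the SERCA3 pump of blood cells, reached 43.3 ± 3.85 CPM per kb, and its pools overlapped with those of Nucb1. Nucb2 reached 26.3 ± 0.666 CPM per kb and overlapped with none of its neighbours. Itpr1 (10.1 ± 0.643), Stim1 (8.99 ± 0.977) and Stim2 (7.68 ± 0.984 CPM per kb) formed a series in which each overlapped with the next. Itpr3 and Itpr2 were lowest, at 2.44 ± 0.420 and 2.39 ± 0.336 CPM per kb, and did not differ beyond their spread. When transcript 201 of each gene was used in place of the principal one, the place of Nucb1 changed: its principal transcript has 4853 bases, and with the 2111 bases of transcript 201 its control level was 105.9 CPM per kb, second to Orai1. Orders based on other transcripts were not computed.

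**Figure D1:**
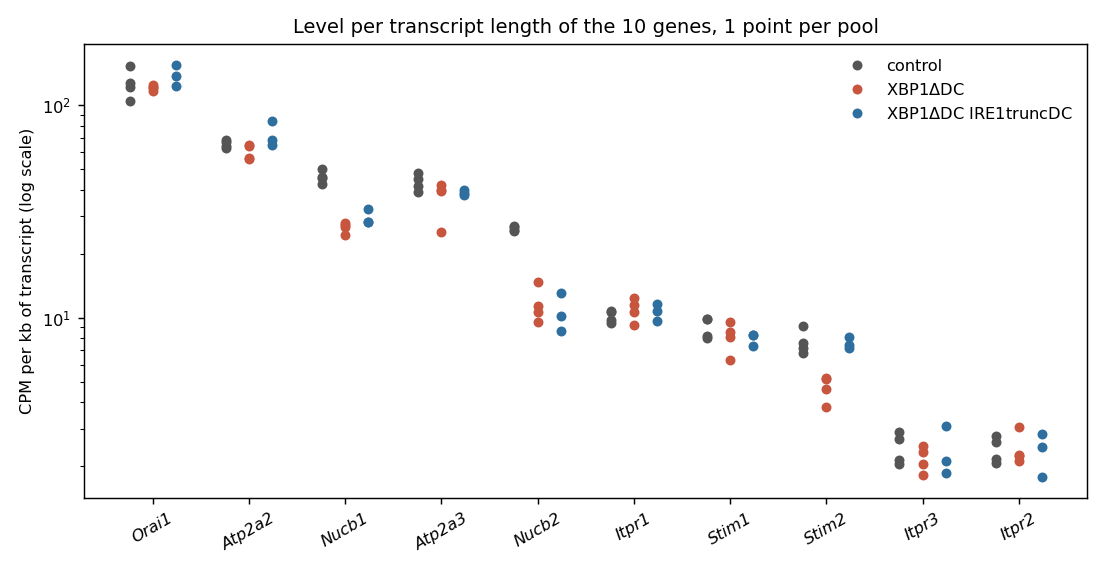
Level of the 10 genes in CPM per kb of principal transcript (y axis, logarithmic), 1 point per pool, with genes ordered by their mean in the 4 control pools (gray) beside XBP1ΔDC (red, 4 pools) and XBP1ΔDC IRE1truncDC (blue, 3 pools). Orai1 is highest in every group, from 105.0 to 155.4 CPM per kb, and only the nucleobindins and Stim2 show colored points that leave the range of the control pools as a group.

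The libraries held 21089065 to 26843486 counts each and 12878 to 13259 detected genes, and the 10 genes together took 0.0892% to 0.124% of the counts. The 8 cDC1 markers were all expressed and summed to between 7469 and 9228 CPM in all pools, whereas B or plasma cell markers reached at most 1.99 CPM, with 2 of them at 0 in all pools, and neutrophil markers at most 1.87. T or NK cell markers summed to between 1.87 and 9.89 CPM in XBP1ΔDC IRE1truncDC pools, above all control pools at 0.312 to 1.85. Markers of cDC2 summed to between 25.7 and 68.5 CPM, those of pDC to between 71.2 and 100.5, and those of macrophages or monocytes to between 498.6 and 1207, with overlapping groups except for pDC markers, which were lower in all XBP1ΔDC and XBP1ΔDC IRE1truncDC pools than in all control pools. Melanoma markers summed to between 8.22 and 59.1 CPM in control, 11.2 and 63.4 in XBP1ΔDC and 6.30 and 8.76 in XBP1ΔDC IRE1truncDC pools. Control overlapped with both deficient lines, whereas all XBP1ΔDC pools were above all XBP1ΔDC IRE1truncDC pools. Xbp1 was counted over the whole gene, so that its level does not check the loss of exon 2: it was 254.7 ± 11.5 CPM in control, 152.1 ± 15.8 in XBP1ΔDC and 209.0 ± 28.7 in XBP1ΔDC IRE1truncDC pools. Ern1 likewise remained counted, at 13.99 ± 3.80, 12.4 ± 2.48 and 21.5 ± 4.49 CPM.

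Both nucleobindins fell upon loss of XBP1, and Stim2 was the only sensor, channel or pump of the 10 genes that passed against control, in XBP1ΔDC. In XBP1ΔDC against control pools, 3 of the 10 genes passed an adjusted p of 0.05 (edgeR quasi-likelihood test, Benjamini-Hochberg over all genes tested), against 0.895% of all genes. All 3 were lower, a direction in which 0.858% of all genes passed. In XBP1ΔDC IRE1truncDC against the same control pools, 2 of the 10 genes passed, Nucb1 and Nucb2, against 0.356% of all genes, and both were lower (0.292% of all genes). Between the 2 deficient lines 0 of the 10 genes passed in this test, against 0.0731% of all genes, while 2 of the 10 had an unadjusted p under 0.05 and DESeq2 called 1, Stim2. Every pool was below every control pool in 3 of the 10 genes in XBP1ΔDC (3.67% of all genes) and in 2 of the 10 in XBP1ΔDC IRE1truncDC (5.81% of all genes). As both deficient lines were compared with the same 4 control pools, these comparisons are not independent of each other. The 10 genes were chosen with earlier results of these data known, so their shares beside all genes are not independent evidence. In bulk pools, a lower level in every cell and fewer cells that express the gene cannot be told apart.

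**Figure D2:**
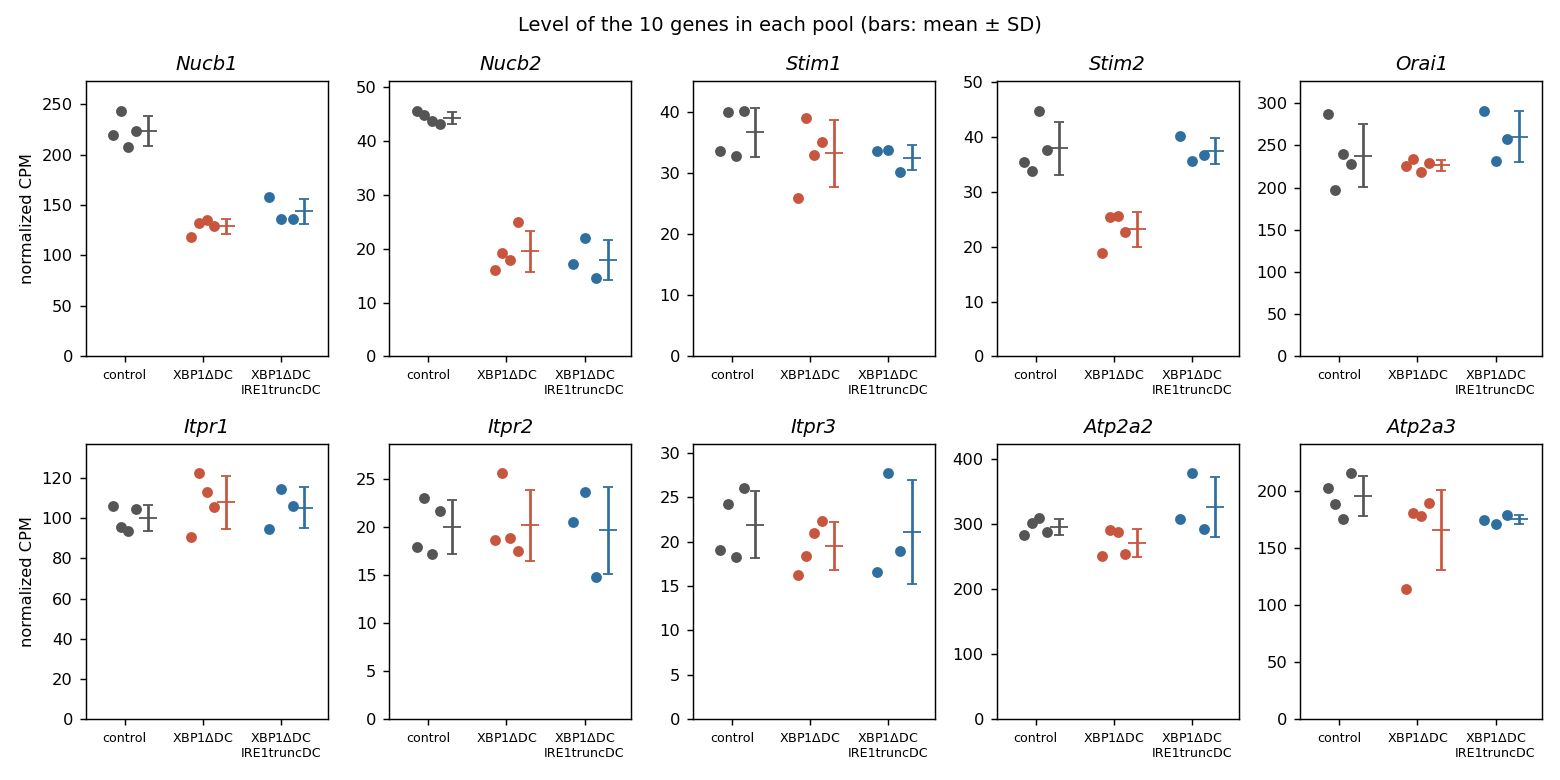
Normalized CPM (y axis, from 0) of each of the 10 genes in every pool of control (gray), XBP1ΔDC (red) and XBP1ΔDC IRE1truncDC (blue) tumor cDC1s, with the mean ± SD beside the points. Nucb1 and Nucb2 lie below all control pools in both deficient groups, and Stim2 lies below them in XBP1ΔDC alone, with 18.8 to 25.6 CPM against 33.8 to 44.8 in control.

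Nucb1 (minus strand, chr7:45490458-45510406, GRCm38) had 219.5, 243.6, 207.6 and 223.4 CPM in the 4 control pools. In XBP1ΔDC pools it had 118.3, 131.8, 135.5 and 129.6 CPM, and in XBP1ΔDC IRE1truncDC pools 158.1, 136.4 and 136.5 CPM. All 7 deficient pools were below the lowest control pool. The log2 fold change was -0.80 ± 0.0788 (SE) in XBP1ΔDC, a fall of 42.4% (95% interval of the change -48.8% to -35.1%, edgeR adjusted p = 0.000316), and only 6 of the 10951 genes had a smaller p. In XBP1ΔDC IRE1truncDC it was -0.64 ± 0.0858, with a change of -35.7% (-43.5% to -26.9%, adjusted p = 0.00571). Every XBP1ΔDC IRE1truncDC pool was above every XBP1ΔDC pool, but by a log2 difference of only 0.16 ± 0.0846 that did not pass (adjusted p = 0.967), with a 95% interval of -1.75% to 26.6%, and that was 0.083 without XBP1ΔDC IRE1truncDC pool 1. The gene shares 0 exon bases with its neighbour Tulp2 on the other strand, so that overlapping exons do not enter its counts.

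Nucb2 (plus strand, chr7:116504369-116540584) had the steeper fall. Its control pools were tight, at 45.6, 44.8, 43.6 and 43.2 CPM. XBP1ΔDC pools had 16.1, 19.2, 17.8 and 24.9 CPM, and XBP1ΔDC IRE1truncDC pools 17.2, 21.9 and 14.5 CPM. No deficient pool came near the control range, while the 2 deficient lines overlapped. In XBP1ΔDC the level dropped to 0.441 of control (log2 fold change -1.18 ± 0.151, edgeR adjusted p = 0.00155). In XBP1ΔDC IRE1truncDC it dropped to 0.403 of control (log2 fold change -1.31 ± 0.167, adjusted p = 0.00551). The 2 deficient lines differed by a log2 of -0.13 ± 0.163, which did not pass (adjusted p = 0.99), and the interval of -28.4% to 17.0% leaves room for a modest difference in either direction.

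The falls of both nucleobindins were as large without the pools that held most tumor cell transcripts. Without the 4 pools of the highest melanoma marker sums (control 3 and 4 and XBP1ΔDC 3 and 4), the log2 fold change of Nucb1 was -0.88 in XBP1ΔDC and -0.69 in XBP1ΔDC IRE1truncDC, and that of Nucb2 was -1.35 and -1.34. With the 7 pools that then remain, 0 of the 10 genes passed in edgeR (3 and 2 with an unadjusted p under 0.05 against control), and the adjusted p of both genes was 0.114 in XBP1ΔDC, while in XBP1ΔDC IRE1truncDC it was 0.15 for Nucb1 and 0.101 for Nucb2. The part of the pDC and of the T or NK marker sums in these results was not tested.

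Stim2 senses small drops of lumenal calcium and keeps basal calcium levels, whereas Stim1 responds to deeper depletion. Stim2 (plus strand, chr5:53998499-54121057) had 35.5, 33.8, 44.8 and 37.5 CPM in control pools. XBP1ΔDC pools had 18.8, 25.5, 25.6 and 22.8 CPM, all below the lowest control pool. XBP1ΔDC IRE1truncDC pools had 40.1, 35.5 and 36.7 CPM, within the control range. The log2 fold change was -0.71 ± 0.125 in XBP1ΔDC (a change of -38.9%, 95% interval -49.4% to -26.2%, edgeR adjusted p = 0.0156) and -0.02 ± 0.134 in XBP1ΔDC IRE1truncDC (interval -19.2% to 20.9%, adjusted p = 0.98). The call in XBP1ΔDC was lost without control pool 3 (log2 fold change -0.62, adjusted p = 0.0502) and without XBP1ΔDC pool 4 (-0.70, adjusted p = 0.0593). It was also lost without the 4 pools of highest melanoma marker sums (-0.64, adjusted p = 0.542).

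The difference between the 2 deficient lines compares pools with and without the IRE1 RNase domain on an XBP1-deficient background. Every XBP1ΔDC IRE1truncDC pool was above every XBP1ΔDC pool, with a log2 difference of 0.69 ± 0.134 (61.8% higher, 95% interval 32.3% to 97.8%). It had an unadjusted p of 0.000193 and the rank 19 of 10951 genes, and it did not pass after adjustment in edgeR (adjusted p = 0.111), whereas in DESeq2 the log2 difference was 0.70 with an adjusted p of 0.00174. Stim2, Nucb1 and Atp2a2 were the 3 of the 10 genes with every pool above those of XBP1ΔDC, as were 3.11% of all genes. The study itself names Stim2 among RIDD targets that decreased in these pools, so its direction here is not independent evidence.

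Stim1, the other sensor, did not pass in any comparison. It had 33.6, 40.0, 32.9 and 40.3 CPM in control pools, 25.9, 39.1, 33.0 and 35.1 in XBP1ΔDC pools and 33.7, 33.8 and 30.2 in XBP1ΔDC IRE1truncDC pools, and all 3 groups overlapped. The log2 fold changes of -0.14 ± 0.129 and -0.17 ± 0.140 did not pass (adjusted p = 0.927 and 0.724). Per kb of transcript, Stim2 made up 46.1 ± 5.13% of the sum of both sensors in control pools. In XBP1ΔDC pools this share was 36.6 ± 2.03%, from 34.9% to 39.1% and below the lowest control pool at 41.1%. In XBP1ΔDC IRE1truncDC pools it was 48.8 ± 1.96% (n = 3), within the control range. The sum of both sensors was 16.7 ± 0.897 CPM per kb in control, 12.8 ± 1.93 in XBP1ΔDC and 15.6 ± 0.780 in XBP1ΔDC IRE1truncDC pools. The shares were not tested apart from the fit of each gene.

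**Figure D3:**
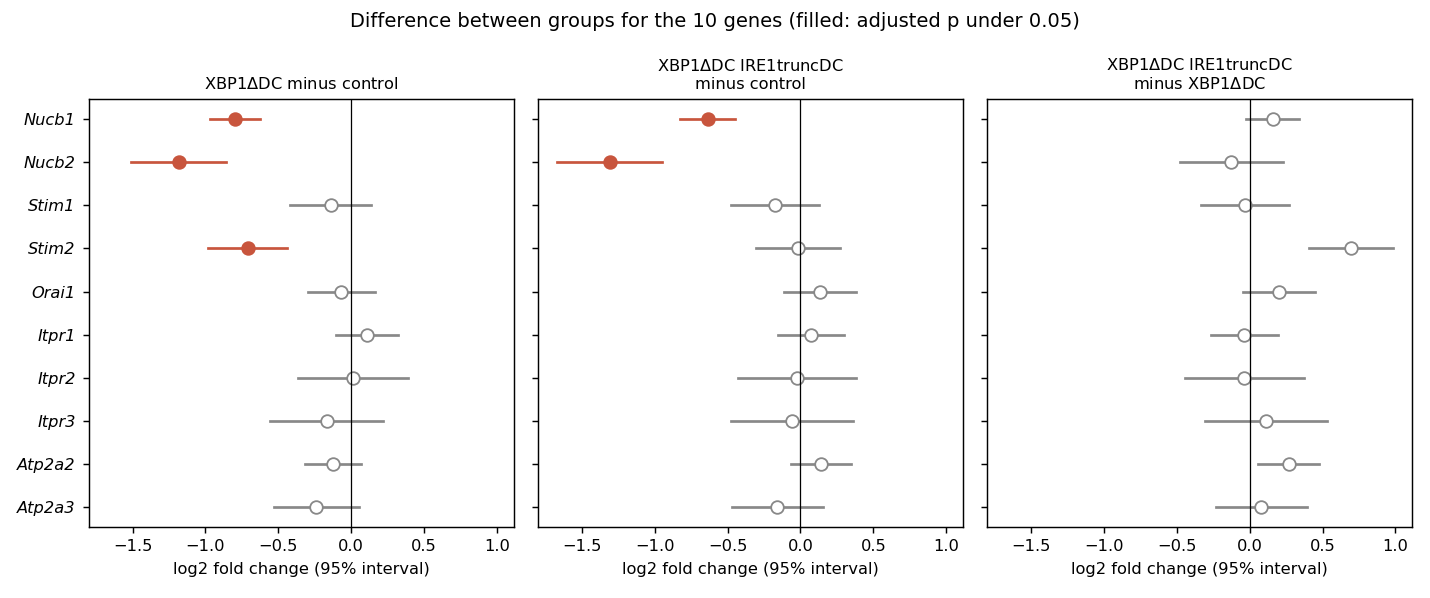
Log2 fold change (x axis) with its 95% interval for the 10 genes in each of the 3 comparisons, filled red where the edgeR adjusted p is under 0.05. Nucb1 and Nucb2 are filled in both comparisons with control, Stim2 only in the first, and in the third the intervals of Stim2 and Atp2a2 lie above 0 without passing the adjustment.

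Orai1, the pore that STIM proteins open, had 286.9, 196.8, 239.8 and 227.6 CPM in control pools. XBP1ΔDC pools, at 225.6, 233.5, 218.1 and 229.7 CPM, lay within that range, and XBP1ΔDC IRE1truncDC pools had 291.4, 231.6 and 258.2 CPM. The log2 fold changes against control were -0.07 ± 0.106 and 0.13 ± 0.114 (adjusted p = 0.964 and 0.751). The related channels Orai2 and Orai3 did not pass either, with 40.5 ± 4.69 and 59.25 ± 6.16 CPM in control pools.

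None of the IP3 receptors passed in any comparison. Itpr1 was the main receptor, with 67.8 ± 3.44% of the summed CPM per kb of the 3 genes in control, 70.4 ± 0.868% in XBP1ΔDC and 69.6 ± 3.67% in XBP1ΔDC IRE1truncDC pools. It had 106.2, 95.9, 93.4 and 104.7 CPM in control pools, 90.8 to 122.4 in XBP1ΔDC and 94.7 to 114.8 in XBP1ΔDC IRE1truncDC pools, so that the groups overlapped (log2 fold changes 0.11 ± 0.0981 and 0.07 ± 0.106). Itpr2 ranged from 17.2 to 23.0 CPM in control, from 17.5 to 25.6 in XBP1ΔDC and from 14.7 to 23.7 in XBP1ΔDC IRE1truncDC pools. Itpr3 ranged from 18.3 to 26.0, from 16.3 to 22.3 and from 16.6 to 27.7 CPM. Itpr2 and Itpr3 were the lowest of the 10 genes per kb and had the widest intervals on the log2 scale. For Itpr3 in XBP1ΔDC the interval ran from -32.0% to 16.5%, so that changes within that range remain possible. The smallest change that would have passed was not determined. Itpr3 shares 233 exon bases with the antisense gene Itpr3os and Itpr1 shares 108 with the antisense gene Gm44040 and 181 with Gm44101 on the other strand. Likewise, Atp2a2 shares 83 exon bases with Gm43361 on the other strand, and Orai1 shares 7 with the antisense gene Gm2479. The strand setting of the counting is not given in the sources used here. The counts of both receptors, Atp2a2 and Orai1 are therefore uncertain by the reads in these bases.

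The SERCA pumps did not pass in any comparison. Atp2a2 had 283.1, 301.5, 309.5 and 287.8 CPM in control pools, 250.6, 291.1, 288.1 and 254.4 in XBP1ΔDC pools and 307.2, 378.0 and 292.7 in XBP1ΔDC IRE1truncDC pools. Each deficient line overlapped with control (log2 fold changes -0.12 ± 0.0886 and 0.14 ± 0.0954), while the pools of the 2 lines did not overlap with each other. The difference between them was a log2 of 0.27 ± 0.0953 with an unadjusted p of 0.0155, which did not pass (adjusted p = 0.787). Without XBP1ΔDC IRE1truncDC pool 2 it was 0.14, and the log2 fold change of that line against control was 0.022. Atp2a3 had 202.9, 188.3, 175.6 and 215.7 CPM in control pools, and 175.0, 171.3 and 179.4 in XBP1ΔDC IRE1truncDC pools. XBP1ΔDC pool 1 stood apart with 114.1 CPM, against 180.6, 178.4 and 190.0 in the other pools of its group. The log2 fold change in XBP1ΔDC of -0.24 ± 0.134 (adjusted p = 0.772) was -0.10 without that pool and -0.40 without the 4 pools of the highest melanoma marker sums, and passed in neither.

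Across the 7 genes that did not pass in XBP1ΔDC, the 95% intervals of the change reached from -32.0% to 30.9% of control. For the 8 genes that did not pass in XBP1ΔDC IRE1truncDC they reached from -28.2% to 30.3%. The median log2 fold change of the 10 genes was -0.15 in XBP1ΔDC and -0.04 in XBP1ΔDC IRE1truncDC, beside medians of 0.005 and -0.0031 over all genes tested.

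The wider calcium machinery was followed with 6 lists of 118 distinct genes tested, the 10 genes included. These lists too were chosen with earlier results of these data known. Of the other 108 genes, 4 passed in XBP1ΔDC (3 lower and 1 higher), beside 0.895% of all genes, and 2 in XBP1ΔDC IRE1truncDC (1 lower and 1 higher), beside 0.356% of all genes, and 0 passed between the lines, where 10 had an unadjusted p under 0.05 in edgeR and DESeq2 called Pkd1 and Erp44 besides Stim2. The list of calcium-binding proteins of the ER lumen held most of them. In XBP1ΔDC 5 of its 20 genes tested passed, the nucleobindins, Erp44 and P4hb lower and Hspa5 higher, with a list median of -0.11. In XBP1ΔDC IRE1truncDC 4 of the 20 passed, without Erp44, with a list median of -0.13. Without the 4 pools of the highest melanoma marker sums, 0 of the 20 passed in edgeR in either line, with 6 in XBP1ΔDC and 9 in XBP1ΔDC IRE1truncDC at an unadjusted p under 0.05.

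P4hb, the protein disulfide isomerase PDI, had 905.3 CPM on average in control, 525.5 in XBP1ΔDC and 565.3 in XBP1ΔDC IRE1truncDC pools (log2 fold changes -0.78 ± 0.072 and -0.68 ± 0.0785, edgeR adjusted p = 0.000182 and 0.00307). Erp44, which retains client proteins in the early secretory pathway and binds the IP3 receptor encoded by Itpr1, had 187.0, 187.8, 187.9 and 195.9 CPM in control pools. It had 116.5, 113.4, 108.2 and 110.3 CPM in XBP1ΔDC and 149.4, 154.6 and 126.1 in XBP1ΔDC IRE1truncDC pools, and the 3 groups were fully separate. It fell in XBP1ΔDC (-0.76 ± 0.0735, adjusted p = 0.000286), and the change in XBP1ΔDC IRE1truncDC of -0.40 ± 0.0795 did not pass in this test (edgeR adjusted p = 0.0546), whereas DESeq2, limma-voom and the newer edgeR quasi-likelihood method called it. Hspa5, the chaperone BiP and a main calcium buffer of the ER, rose from a mean of 1675 CPM in control to 2208 in XBP1ΔDC and 2832 in XBP1ΔDC IRE1truncDC pools (0.40 ± 0.0836 and 0.76 ± 0.0896, adjusted p = 0.0444 and 0.00314). Its call in XBP1ΔDC was lost in limma on the log2 values of the authors. Calr and Canx, lectin chaperones that bind calcium, did not pass, with log2 fold changes of 0.13 and -0.07 in XBP1ΔDC and of 0.26 and -0.05 in XBP1ΔDC IRE1truncDC. Calu and Hsp90b1 did not pass in this edgeR test either, but other tools called them. Calu was called in XBP1ΔDC by DESeq2, limma-voom and the newer edgeR method, and in XBP1ΔDC IRE1truncDC by DESeq2. Its means were 164.6 CPM in control, 117.3 in XBP1ΔDC and 119.3 in XBP1ΔDC IRE1truncDC pools. DESeq2 called Hsp90b1 in XBP1ΔDC IRE1truncDC, with means of 1013 CPM in control and 1463 in that line.

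Pkd1, polycystin-1, was the only other gene of the release and leak list that passed. It had 68.8, 80.3, 72.1 and 67.4 CPM in control pools, 49.4, 49.1, 37.1 and 41.0 in XBP1ΔDC and 75.3, 64.4 and 73.3 in XBP1ΔDC IRE1truncDC pools. Like Stim2, it was lower in all XBP1ΔDC pools (-0.71 ± 0.108, edgeR adjusted p = 0.00553) and overlapped with control in XBP1ΔDC IRE1truncDC (-0.02 ± 0.116, adjusted p = 0.97). Its difference between the 2 lines was 0.69 ± 0.116 on the log2 scale and missed the threshold (adjusted p = 0.061). In the list of store-operated entry, 1 of 20 genes tested passed in XBP1ΔDC, which was Stim2, and 0 passed in XBP1ΔDC IRE1truncDC (4 with an unadjusted p under 0.05, and 0 called by DESeq2). In the lists of calcium pumps (8 genes tested), mitochondrial calcium (18) and IP3 generation with NFAT signaling (28), 0 genes passed in edgeR in the 3 comparisons, with 0 to 6 genes of a list at an unadjusted p under 0.05. DESeq2 called 0 pump genes in the 3 comparisons and Plcb4 of the IP3 list in both lines against control, with edgeR log2 fold changes of 0.60 and 0.61. The list medians of these 3 lists lay between -0.06 and 0.11.

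**Figure D4:**
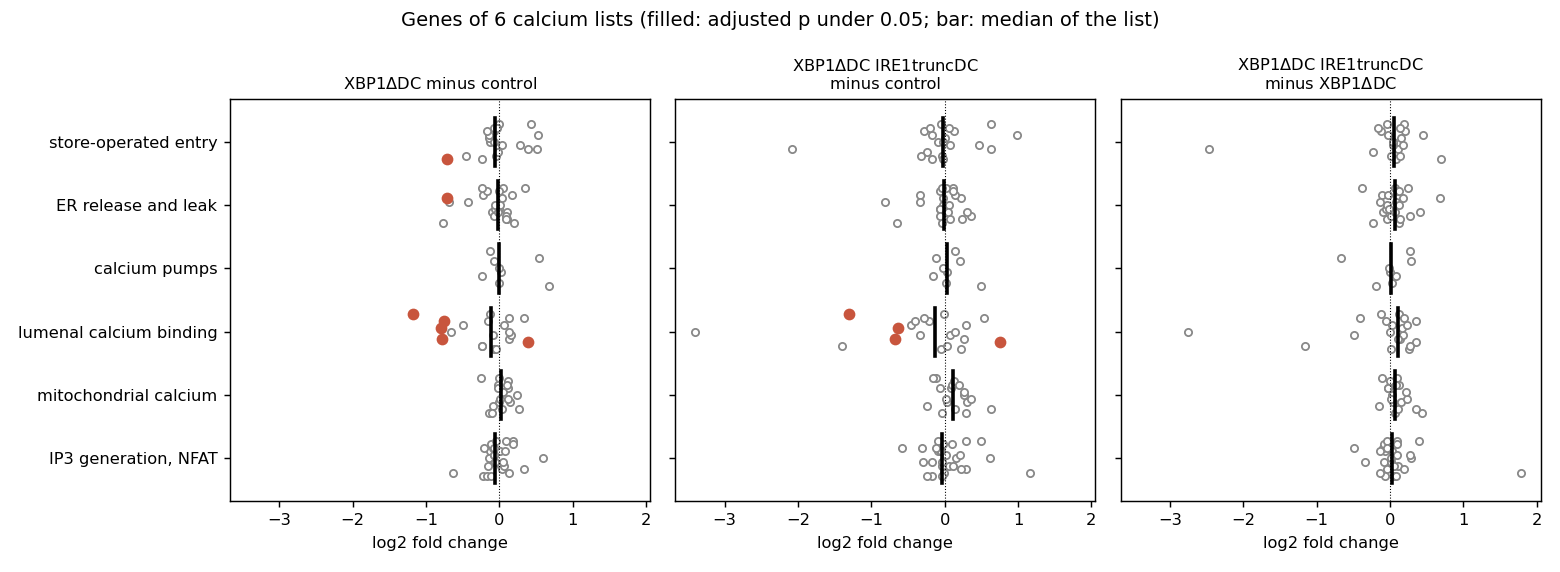
Log2 fold change (x axis) of every gene tested in 6 calcium lists (rows), 1 panel per comparison, filled red where the edgeR adjusted p is under 0.05, with the median of each list as a bar. The filled points sit mainly in the list of lumenal calcium binding, where 4 genes are lower and 1 higher in XBP1ΔDC, and the third panel has no filled point. Points beyond a log2 of -1.2 that are not filled, such as Fkbp9, are of genes with means under 2.3 CPM.

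For the 3 genes that passed, the 5 genes with the nearest pattern over the 11 pools were determined from the root mean square distance between z-scores of log2 CPM, for which the median over all genes was 1.34 to 1.36. The nearest to Nucb1 were Slc30a5 (distance 0.2), Txndc5, Creb3l2, Slc39a7 and Spcs3 (0.245). Those nearest to Nucb2 were Tmed2 (0.257), Stt3a, Ssr1, Creb3l2 and Hyou1 (0.293). Creb3l2 was thus near both nucleobindins, with means of 10.1 CPM in control, 1.99 in XBP1ΔDC and 2.34 in XBP1ΔDC IRE1truncDC pools. For Stim2 they were Fcrla (0.35), Itgb2, Notch4, Paqr8 and Dpy19l1 (0.411). Each of these 5 had a lower mean in XBP1ΔDC than in the other 2 groups, as in Itgb2 with 831.3, 267.0 and 916.3 CPM in control, XBP1ΔDC and XBP1ΔDC IRE1truncDC. No gene was among the nearest 5 of both Stim2 and a nucleobindin. As these genes were picked for nearness over the same 11 pools, their shared patterns follow from the choice.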

How the data were processed

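Tumor cDC1s were profiled by SMART-seq v4 and single-end sequencing. The deposited counts per gene were made by the authors with Trimmomatic 0.39, STAR 2.7.3a and HTSeqCount on mm10, per the labels and the study's methods, and the strand setting is not given in the sources used here. The authors also deposited log2 values normalized with limma, used here only in an alternative.

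Counts were scaled by TMM and fitted in edgeR 4.0.16 (R 4.3.3) with the 3 genotypes in 1 quasi-likelihood model of all 11 pools, for genes above 1 CPM in at least 4 pools, with Benjamini-Hochberg adjustment over 10951 genes. The fit was tested on simulated data. P-values measure the spread between pools. DESeq2 1.42.0, limma 3.58.1, other scalings and filters and the omission of pools were among 22 alternatives. No 2 pools of a group were copies (chi-square per degree of freedom 20.6 to 64.6).

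Named genes are the 10 members, list genes that passed in any comparison, Xbp1, Ern1 and the 5 nearest genes of each member that passed. Orai2, Orai3, Calr, Canx, Calu, Hsp90b1, Plcb4 and Fkbp9 were named after their values were seen. Members and lists were chosen with earlier results of these data known, and the study had named Stim2 and Erp44 from these pools. The sum over melanoma markers was used to leave out pools after the data were seen. Transcripts, exons and gene positions came from GENCODE vM21, and promoters from RefSeq.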

Additional observations from a re-analysis of the deposited data

Results flagged for a closer look

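In the 4 XBP1ΔDC pools, Atp2a3 had a lowest value of 114.1 CPM in pool 1, far from the other 3 pools of the group. Itpr2 had a highest value of 25.56 CPM in pool 2 of the same group. Each was flagged because its gap to the nearest pool exceeds Dixon's critical value for 4 samples, a rule that flags about 1 in 20 groups by chance, and 20 groups of 4 pools were examined.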

How the results depend on the processing

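Nucb1 and Nucb2 stayed lower in both lines in all 22 alternatives. Nucb1 lost its call in XBP1ΔDC IRE1truncDC with the replicate block (adjusted p = 0.0613), and both lost theirs in both lines when the 4 pools with the highest melanoma sums were left out, which leaves 2, 2 and 3 pools. Without single pools, Nucb1 ranged from -0.83 to -0.75 in XBP1ΔDC and Nucb2 from -1.32 to -1.10. Stim2 in XBP1ΔDC ranged from -0.76 to -0.62 and passed in 18 of 22. Its difference between the lines passed in 1 of 22 (DESeq2). Under the other scalings the median log2 fold change over all genes lay between -0.0312 and 0.0337.

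Same-numbered pools did not deviate together (mean correlation 0.0979 for control and XBP1ΔDC, 0.00353 for control and XBP1ΔDC IRE1truncDC, -0.221 between the lines), so the number pairs no samples. With the replicate block, Stim2 in XBP1ΔDC had -0.71 (adjusted p = 0.0579), Itpr3 in XBP1ΔDC IRE1truncDC turned to 0.0075 and Stim1 between the lines to 0.018. Genes with an adjusted p under 0.05 under the block numbered 59 in XBP1ΔDC, 12 in XBP1ΔDC IRE1truncDC (11 of them past the fold of 1.5, and 1 of the 10 members) and 3 between the lines (3 past the fold).

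Genes passing in XBP1ΔDC, 98 here, numbered 181 in DESeq2, 62 with the authors' log2 values and 60 to 109 without single pools (genes also past the fold of 1.5, called DEGs, 37 to 57). In XBP1ΔDC IRE1truncDC, 39 genes and 23 DEGs became 199 and 95 in DESeq2, 20 and 15 with the authors' values, 22 and 15 with the 2 groups only, and 17 to 33 and 12 to 23 without single pools; DESeq2 called 9 calcium list genes. Between the lines, 8 genes and 8 DEGs became 59 and 36 in DESeq2, 4 and 4 with the authors' values, and 4 to 11 and 4 to 10 without single pools. DESeq2 called 3 calcium list genes and 1 member there, and 1 calcium list gene passed without the filter. Without the 4 pools, 1 gene passed in each line against control (1 DEG each, 0 calcium list genes and 0 members) and 4 between the lines (4 DEGs), Stim2 in XBP1ΔDC IRE1truncDC was 0.12, and between the lines Nucb2 was 0.017 and Stim1 0.00054.

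The other reversals were of values near 0 that never passed. Itpr2 in XBP1ΔDC was -0.0041 in limma-voom. Without single pools, in XBP1ΔDC, Itpr2 ranged from -0.12 to 0.088 and Orai1 from -0.15 to 0.034. In XBP1ΔDC IRE1truncDC, Itpr2 ranged from -0.18 to 0.15, Itpr3 from -0.30 to 0.090 and Stim2 from -0.069 to 0.074. Between the lines, Atp2a3 ranged from -0.062 to 0.15, Itpr1 from -0.11 to 0.0391, Itpr2 from -0.195 to 0.132, Itpr3 from -0.137 to 0.258, Nucb2 from -0.30 to 0.013 and Stim1 from -0.14 to 0.062. The causes were not tested.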
